A study of Mus musculus with 2 samples.

Results

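Keratins are the intermediate filament proteins of epithelial cells. A type I (acidic) chain pairs with a type II (basic) chain, and the pair that a cell uses is a classic marker of its layer and lineage. In the mammary gland *Krt5* and *Krt14* mark the basal, myoepithelial layer, while *Krt8*, *Krt18* and *Krt19* mark the luminal layer. In skin, *Krt1* and *Krt10* replace *Krt5* and *Krt14* as cells leave the basal layer, *Krt6a*, *Krt16* and *Krt17* are induced by stress and wounding, and a separate set of keratins builds the hair and its sheaths. The keratin family was read here in mammary basal cells as the rows of the deposited count table whose name was Krt followed by a number and at most one letter. That rule used names only and took 54 of 49492 genes, 28 of type I and 26 of type II. The type I genes form a cluster on chromosome 11 and the type II genes a cluster on chromosome 15, except that the type I gene *Krt18* stands at the end of the type II cluster next to its partner *Krt8*. Keratin-associated proteins and keratin pseudogenes were left out.

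The cells were primary mammary epithelial cells of adult wild-type female mice, sorted by flow cytometry as lin-CD24+CD29hi basal cells, where lin stands for CD45, CD31 and TER119. CL basal cells came from mice that had been given repeated intraperitoneal injections of clodronate liposomes (CL), which deplete macrophages, and their label reads Day 7. Ctrl basal cells carry the same genotype and time label. Their treatment label reads none, whereas the design text of the series names saline. The comparison asks how the RNA of basal cells differed once macrophages had been depleted. Each group was 1 library, and the number of mice behind it is not given in the sources used here. There is thus no replicate check of any difference below, no test with replicates was made, and every interval covers counting error only. The libraries held 38962512 counts (CL basal) and 37846008 counts (Ctrl basal). All 12 basal and myoepithelial markers fixed for a check of the label were present in both libraries, among them *Acta2* with 50513 counts in CL basal against 51506 in Ctrl basal, and *Trp63* with 6601 and 5984. The median log2 ratio of those 12 markers was -0.0047, and none differed by 2-fold.

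Of the 54 keratins, 48 had at least 1 count, 28 had at least 20 counts over both libraries, and 21 had at least 100. Ratios were formed for the 28 only, as log2 of CL basal over Ctrl basal after scaling by the trimmed mean of M-values, and a gene is called here when that ratio reached 2-fold in either direction. The keratins as a whole took 1.27% of all counts in CL basal against 1.39% in Ctrl basal. Within that nearly equal total the family had a different make-up in the CL library. Luminal keratins were lower, the type I basal and stress keratins *Krt14*, *Krt16* and *Krt17* were a little higher and the type II members *Krt5* and *Krt6a* a little lower, *Krt15* was nearly 2-fold higher, and the suprabasal pair *Krt1* and *Krt10* was many-fold higher from a low level. In bulk RNA, fewer cells of a type and less RNA per cell cannot be told apart, and this holds for each of these differences.

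Called higher in CL basal were 2 keratins (*Krt1* and *Krt10*) and 7 were called lower (*Krt4*, *Krt7*, *Krt79*, *Krt83*, *Krt78*, *Krt75* and *Krt19*). Among all 17356 genes with at least 20 counts, 2.07% were called higher and 4.78% were called lower. If animals are assumed to vary with a coefficient of variation of 0.2, the calls that exceed that spread are *Krt1* and *Krt10* (higher) and *Krt4* and *Krt7* (lower), and at 0.4 there are 0. How many of all genes exceed the same spread was not counted. The median log2 ratio of the 28 keratins was -0.18, with 11 above 0 and 17 below, against -0.0059 over all genes. This median was not stable, since it became -0.064 with no count filter and -0.0029 without genes that overlap another gene. The share called depends strongly on the number of counts, so the keratins were also set beside genes of like count. Of the 7 keratins with 20 counts or more but under 100, none was called higher and 3 were called lower, where 7.66% and 15.2% of the 3849 genes in that range were. Of the 7 with 100 or more but under 1000 counts, 2 were called higher and 1 lower, where 0.842% and 3.26% of 6410 genes were. Of the 5 with 1000 or more but under 10000 counts, none was called higher and 1 lower, where 0.197% and 0.501% of 5592 genes were. Of the 9 with 10000 counts or more, 2 were called lower, where 0.598% of 1505 genes were and no gene was called higher. At a threshold of 1.5-fold, 4 keratins were higher and 11 lower, where 6.34% and 11.7% of all genes were.

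**Figure D1:**
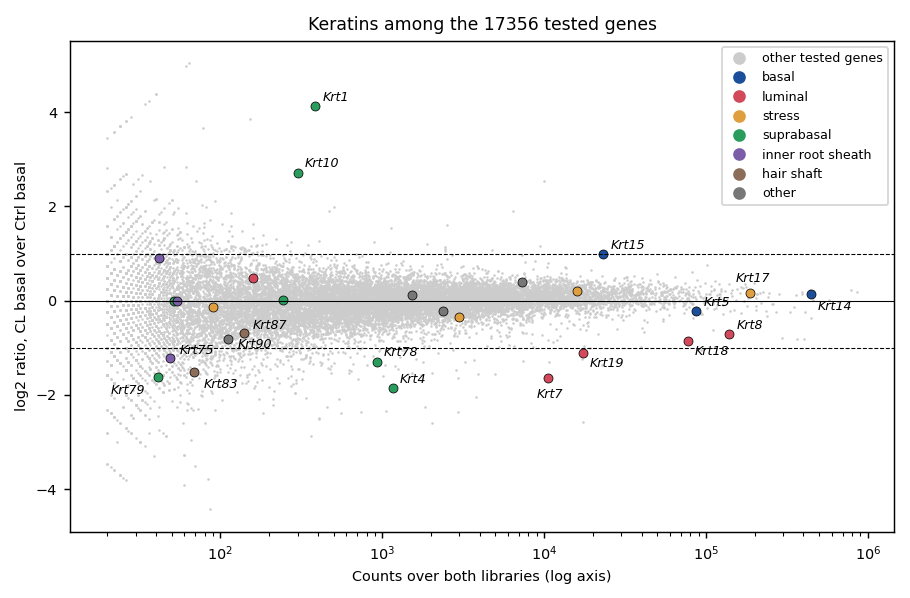
Log2 ratio of CL basal over Ctrl basal against the counts over both libraries (log axis) for each gene with at least 20 counts, 1 library per group. Keratins are coloured by class and other genes are grey, and the dashed lines mark 2-fold. *Krt1* (4.13) and *Krt10* (2.72) lie above the cloud, *Krt15* (0.99) lies on the upper edge of the abundant genes, and *Krt7* (-1.65), *Krt19* (-1.11), *Krt18* (-0.86) and *Krt8* (-0.71) lie on the lower edge.

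The sequences upstream of 4 keratin genes are shown as examples from the contrasts described below. *Krt8* and *Krt18* are the luminal pair that was lower in CL basal, *Krt10* was higher, and *Krt5* differed little. Each is the 250 bases before the RefSeq start of the gene in GRCm38.p6, written 5′ to 3′ on the strand of the gene, with matches to the searched motifs in capitals. The motifs searched, on both strands, were TATAAA (bound by TATA-binding protein), CCAAT (by NF-Y), GGGCGG (by Sp1), TGANTCA (by AP-1) and GCCNNNGGC (by AP-2).
*Krt8*, chr15:102004343-102004592, minus strand: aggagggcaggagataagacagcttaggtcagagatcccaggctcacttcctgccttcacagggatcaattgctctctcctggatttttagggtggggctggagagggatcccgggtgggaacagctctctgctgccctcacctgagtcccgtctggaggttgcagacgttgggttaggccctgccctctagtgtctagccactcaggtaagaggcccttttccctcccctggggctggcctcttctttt
*Krt18*, chr15:102027966-102028215, plus strand: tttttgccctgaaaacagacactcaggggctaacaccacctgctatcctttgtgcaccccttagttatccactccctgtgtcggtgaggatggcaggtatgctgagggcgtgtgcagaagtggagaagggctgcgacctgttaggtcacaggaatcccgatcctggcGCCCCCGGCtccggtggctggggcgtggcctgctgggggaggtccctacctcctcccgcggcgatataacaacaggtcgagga
*Krt10*, chr11:99389365-99389614, minus strand: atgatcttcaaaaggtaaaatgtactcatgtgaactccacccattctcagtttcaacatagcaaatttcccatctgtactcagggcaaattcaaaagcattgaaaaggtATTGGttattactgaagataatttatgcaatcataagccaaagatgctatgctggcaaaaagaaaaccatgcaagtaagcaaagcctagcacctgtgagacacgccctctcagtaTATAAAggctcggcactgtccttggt
*Krt5*, chr15:101712906-101713155, minus strand: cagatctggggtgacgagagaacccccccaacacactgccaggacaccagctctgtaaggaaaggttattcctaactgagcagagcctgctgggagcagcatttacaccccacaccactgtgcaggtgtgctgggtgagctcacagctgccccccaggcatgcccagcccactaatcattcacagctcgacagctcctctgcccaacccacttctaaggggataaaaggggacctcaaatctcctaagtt

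In these windows *Krt10* held TATAAA at 26 to 21 bases before the start and, on the other strand, a CCAAT match at 141 to 137 bases before it. *Krt18* held 1 GCCNNNGGC match at 83 to 75 bases before the start, and *Krt8* and *Krt5* held none of the 5 motifs, which says only that these letters are not in these windows. The *Krt5* entry starts 14 bases outside the deposited gene. Entries were found for 36 of the 54 keratins, in 37 windows. *Krt1*, *Krt15* and *Krt19* had no entry. The window of *Krt7*, not printed here, held 4 GGGCGG and 2 GCCNNNGGC matches. TATAAA was present in 17 of these 37 windows (45.9%), and in 12.4% of all 32851 windows of the same length. GGGCGG was present in 2 (5.41%) against 32.7%, CCAAT in 15 (40.5%) against 33.8%, TGANTCA in 2 (5.41%) against 6.75%, and GCCNNNGGC in 5 (13.5%) against 13.7%. A match is a description of the sequence and not evidence of binding.

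The basal keratins carried most of the keratin counts in both libraries. *Krt14*, the type I chain of the basal pair, had 232845 counts in CL basal against 210758 in Ctrl basal, a log2 ratio of 0.14 (95% interval 0.13 to 0.15). Its type II partner *Krt5* had 40295 and 47049 counts, a log2 ratio of -0.23 (-0.25 to -0.21). The pair therefore lay on opposite sides of 0, and both differed by far less than 2-fold. *Krt15*, a type I keratin of basal cells that is used as a stem cell marker in the hair follicle bulge, had 15478 and 7783 counts. Its log2 ratio was 0.99 (0.95 to 1.03), just short of 2-fold, and no gene among the 1505 with 10000 counts or more had a higher ratio. Per *Krt14* count, *Krt15* was 0.85 higher on the log2 scale in CL basal (0.81 to 0.89), a ratio that needs no scaling of the libraries. *Krt15* shared no stretch of 100 exonic bases with any other gene, so reads of *Krt14* of that length do not match it exactly. Summed, the 3 basal keratins had 288618 counts in CL basal against 265590 in Ctrl basal (log2 ratio 0.12). They made up 58.5% of keratin counts in CL basal against 50.5% in Ctrl basal. *Krt14* was 80.7% and 79.4% of the sum, and without it the log2 ratio was 0.021.

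The luminal keratins were lower in the CL library, apart from *Krt20*. *Krt8*, the type II chain of the simple epithelial pair, had 53150 counts in CL basal against 86539 in Ctrl basal, a log2 ratio of -0.71 (-0.72 to -0.69). Its type I partner *Krt18* had 27492 and 49639 counts, a log2 ratio of -0.86 (-0.88 to -0.83). Neither reached 2-fold, yet among the 1505 genes of like count only 19 had a lower ratio than *Krt8* and 12 had a lower ratio than *Krt18*. *Krt19*, the small type I keratin of luminal cells, had 5497 and 11811 counts (-1.11, -1.15 to -1.06). *Krt7*, a type II keratin of ducts and glands, had 2563 and 8003 counts (-1.65, -1.71 to -1.58), and 1 gene among the 1505 had a lower ratio. The 4 genes thus differed to unequal degrees. Per *Krt8* count, *Krt7* was -0.94 on the log2 scale (-1.01 to -0.87) and *Krt19* was -0.40 (-0.45 to -0.35). *Krt20*, a keratin of the gut lining and the bladder, had only 93 and 66 counts, and its log2 ratio of 0.48 (0.02 to 0.97) had an interval of -0.20 to 1.17 once counts were halved to allow for read mates counted apart.

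Summed, the 5 luminal keratins had 88795 counts in CL basal against 156058 in Ctrl basal, a log2 ratio of -0.82 (-0.83 to -0.80). They made up 18.0% of keratin counts in CL basal against 29.7% in Ctrl basal. The ratio of *Krt7*, *Krt8*, *Krt18* and *Krt19* counts to *Krt5* and *Krt14* counts was 0.325 in CL basal against 0.605 in Ctrl basal. Of the counts of these 6 genes, the luminal share was 24.5% in CL basal (exact binomial interval 24.4% to 24.7%) and 37.7% in Ctrl basal (37.5% to 37.8%). This ratio was 1.86-fold lower in CL basal, or -0.90 on the log2 scale (-0.91 to -0.88), and it does not depend on how the libraries were scaled.

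Luminal genes that are not keratins moved with the luminal keratins. All 19 genes of the luminal list were lower in CL basal, with a median log2 ratio of -0.88 against -0.0059 over all genes, and 8 were called lower, where 4.78% of all genes were. The list summed to 51941 counts in CL basal against 80734 in Ctrl basal. *Aldh1a3*, an aldehyde dehydrogenase of luminal progenitors, had 8048 and 19601 counts (-1.29), and *Areg*, the hormone-induced EGF receptor ligand, had 3094 and 7665 (-1.31). *Epcam*, the epithelial adhesion molecule, had 33600 and 40023 (-0.26). No defining luminal marker was at 0 in either library, and *Lalba*, the milk protein, had the fewest counts with 2 and 30. How far the number of luminal cells in the sorted fraction set the luminal keratin counts was not tested.

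**Figure D2:**
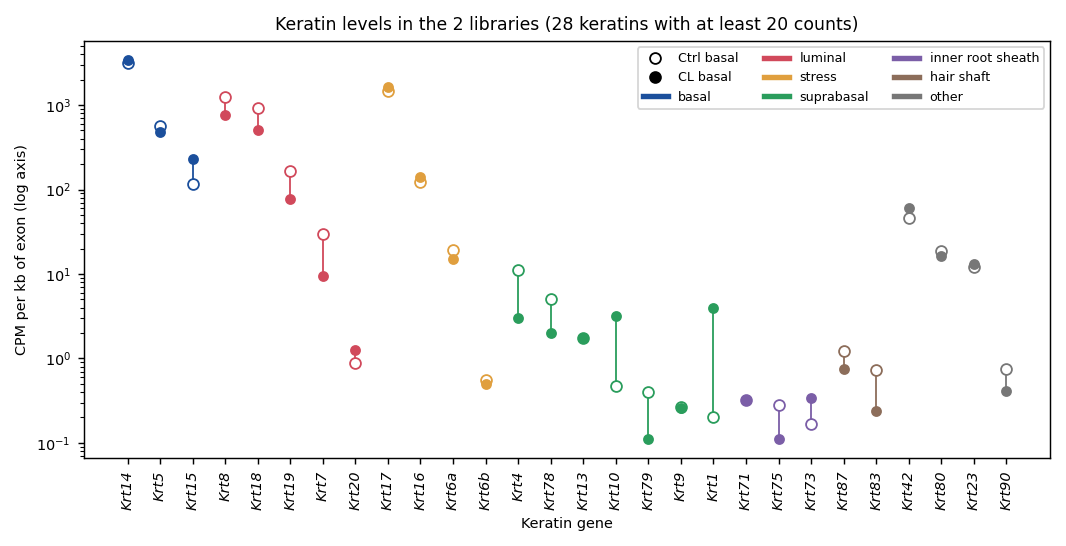
Level of each of the 28 keratins with at least 20 counts, in CPM per kb of exon (log axis), in the Ctrl basal library (open) and the CL basal library (filled), coloured by class, 1 library per group. *Krt7*, *Krt8*, *Krt18* and *Krt19* have the filled point below the open one, *Krt15*, *Krt1* and *Krt10* have it above, and the points of *Krt14* and *Krt17* nearly coincide.

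Per kb of exon, the first 5 places in the order of levels were the same in both libraries. *Krt14* came first with 3445 CPM per kb (library-scaled counts over exonic length) in CL basal against 3125 in Ctrl basal, then *Krt17* with 1657 and 1477, *Krt8* with 766 and 1250, *Krt18* with 511 and 924, and *Krt5* with 479 and 560. *Krt15* moved from place 8 in Ctrl basal (115 CPM per kb) to place 6 in CL basal (228), and *Krt19* moved from place 6 (166) to place 8 (77.1). *Krt16* kept place 7, with 142 and 124. *Krt1* moved from place 27 (0.203) to place 14 (3.90), and *Krt10* from place 22 (0.469) to place 15 (3.22). Even in the CL library *Krt1* and *Krt10* were thus under the 3 basal keratins and under *Krt7*, *Krt8*, *Krt18* and *Krt19*, but above *Krt20* (1.26). The level of *Krt7* is understated, since its deposited length of 7055 exonic bases joins several transcripts and the longest coding transcript has 4094.

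The suprabasal and differentiation class held keratins at both ends of the range. *Krt1*, the first type II keratin that epidermal cells make on leaving the basal layer, had 367 counts in CL basal against 19 in Ctrl basal. Its log2 ratio was 4.13 (3.60 to 5.02), or 3.29 to 5.28 with counts halved, and no gene among the 6410 of like count had a higher ratio. *Krt10*, its type I partner, had 262 and 38 counts, a log2 ratio of 2.72 (2.29 to 3.31), or 2.08 to 3.56 with counts halved, and 2 of the 6410 genes had a higher ratio. Of the 2114 exonic bases of *Krt10*, 146 overlap *Gm11940* on the opposite strand, which had 61 counts in CL basal against 0 in Ctrl basal, and the use of strand in counting is not given in the sources used here. *Krt1* overlaps no other gene and shares no 100-base stretch with one. Per base of exon, *Krt1* was at 1.21 of the level of *Krt10* in CL basal and at 0.432 in Ctrl basal, where the 19 counts leave this ratio imprecise.

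Other members of this class were lower or level. *Krt4*, the type II keratin of mucosal linings such as the oesophagus, had 250 counts in CL basal against 911 in Ctrl basal (-1.86, -2.08 to -1.67), and 5 of the 5592 genes of like count had a lower ratio. *Krt13*, the type I partner of *Krt4*, had 123 and 121 (0.020, -0.35 to 0.39), so this pair did not move together, and the per-base ratio of *Krt4* to *Krt13* was 1.74 in CL basal against 6.43 in Ctrl basal. *Krt78*, a type II keratin of stratified epithelia, had 267 and 659 (-1.30, -1.52 to -1.10). *Krt79*, known from the hair canal and sebaceous duct, had 9 and 32 (-1.63, -3.09 to -0.73). *Krt9*, the keratin of palm and sole, had 26 counts in both libraries. *Krt2*, *Krt12*, *Krt24*, *Krt76* and *Krt77* had fewer than 20 counts. The class sum was 1318 and 1816 counts (-0.46), but this sum followed its leading member, since *Krt4* made up 50.2% of it in Ctrl basal, and without *Krt4* the log2 ratio was 0.24.

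Epidermal genes that are not keratins did not share 1 direction. Of 17 epidermal differentiation genes, 9 had at least 20 counts, with a median log2 ratio of -0.32, 4 above and 5 below 0, and the list summed to 1472 counts in CL basal against 2004 in Ctrl basal. The sign of this median was not held, at 0.37 with no count filter and 0.23 at 100 counts or more. *Calml3*, a calmodulin-like protein of epithelia, was called higher (93 and 24 counts, 1.87). *Dmkn*, a secreted epidermal protein, was called lower (102 and 236, -1.20), and *Sbsn*, a secreted protein found with it in the upper epidermis, had 615 and 1196 (-0.96). *Lor*, the main protein of the cornified envelope, had 33 and 18 (0.80, 0.00083 to 1.79). *Flg*, *Flg2*, *Casp14*, *Lce1a1* and *Hrnr*, which mark the outer layers of epidermis, were at 0 in both libraries, and *Krtdap* had 2 and 0. The part that skin cells in the sort may have in the *Krt1* and *Krt10* counts was not tested.

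The stress keratins were nearly level. *Krt17*, the type I keratin induced on wounding and also made by myoepithelial cells, had 98774 counts in CL basal against 87869 in Ctrl basal, a log2 ratio of 0.17 (0.15 to 0.18). *Krt16* had 8533 and 7427 (0.20, 0.15 to 0.24). *Krt6a*, their type II partner, had 1303 and 1659 (-0.35, -0.46 to -0.25), so it lay on the other side of 0 from both. *Krt6b* had 43 and 47 counts. The sum of the 4 was 108653 and 97002 (0.16), of which *Krt17* was 90.9% and 90.6%. Per base of exon, *Krt6a* was at 0.106 of *Krt16* in CL basal against 0.155 in Ctrl basal.

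The counts of some of these genes cannot be fully told apart, because they share sequence. *Krt6a* and *Krt6b* were 97.6% identical over their coding bases, and 30.6% of the 100-base stretches of each also occurred in another gene. *Krt14* and *Krt16* were 82.9% identical. Of the 1466 stretches of *Krt16*, 356 (24.3%) recurred in another gene, mostly in the predicted gene *Gm11597*. *Krt14* shared 46 stretches (2.78% of its own), all with *Krt16*. The longest run shared by *Krt14* and *Krt16* is printed because *Krt14* had many times more counts, so a small share of misplaced reads would weigh on *Krt16*. It covers coding positions 306 to 439 of *Krt14* and 282 to 415 of *Krt16*, counted from the start codon in the GENCODE M21 transcripts.
*Krt14* and *Krt16*, shared run of 134 bases: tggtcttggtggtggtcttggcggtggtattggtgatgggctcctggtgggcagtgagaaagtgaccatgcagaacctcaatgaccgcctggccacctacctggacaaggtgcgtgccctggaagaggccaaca
*Krt8* shared 16.9% of its stretches with its pseudogene *Krt8-ps*, and *Krt5* shared 2.38%, mostly with *Krt6a*. *Krt1*, *Krt4*, *Krt7*, *Krt10*, *Krt15*, *Krt17*, *Krt18*, *Krt19*, *Krt42*, *Krt78* and *Krt79* shared none.

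**Figure D3:**
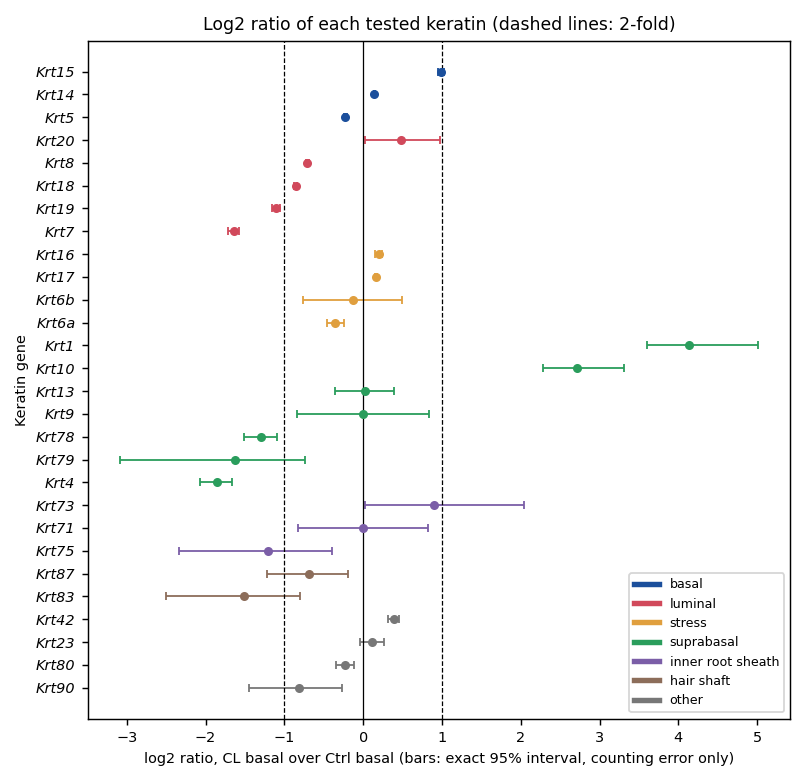
Log2 ratio of CL basal over Ctrl basal for the 28 keratins with at least 20 counts, grouped by class, with exact 95% intervals that cover counting error only (1 library per group). The luminal points other than *Krt20* lie left of 0, the stress points lie between -0.35 (*Krt6a*) and 0.20 (*Krt16*), and the suprabasal points run from -1.86 (*Krt4*) to 4.13 (*Krt1*).

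Hair and hair sheath keratins were close to the limit of detection. Of 9 keratins of the inner root sheath and companion layer, 3 had at least 20 counts, and the class summed to 77 counts in CL basal against 84 in Ctrl basal (-0.13, -0.59 to 0.33). *Krt75*, of the companion layer, was called lower with 14 and 35 counts (-1.21, -2.33 to -0.39, or -2.87 to -0.038 with counts halved). *Krt71* had 27 counts in both libraries and *Krt73* had 28 and 14. Of 15 hair shaft keratins, 2 had at least 20 counts, and the class summed to 103 and 173 (-0.74, -1.12 to -0.39). *Krt83* was called lower with 17 and 52 counts (-1.51, -2.50 to -0.80), and *Krt87* had 53 and 86 (-0.68, -1.22 to -0.19). With counts halved, the interval of *Krt87* was -1.49 to 0.0064 and thus held 0. At these counts *Krt83* is uncertain. It is 93.1% identical to *Krt81* (0 and 4 counts) in its coding bases, and 5.17% of its 100-base stretches recurred in another gene. The keratins *Krt12*, *Krt26*, *Krt27*, *Krt72*, *Krt74* and *Krt88* (6 genes) had no count in either library, where 3 counts would be 0.078 CPM in CL basal against 0.0782 in Ctrl basal. Another 20 had 1 to 19 counts over both. Every keratin named here that had under 100 counts over both libraries and was not called, such as *Krt6b*, *Krt9*, *Krt71*, *Krt73*, *Krt2* and *Krt77*, falls outside the rule for named genes and was named after its values were seen.

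Hair follicle genes that are not keratins gave no single direction. Of 10, 4 had at least 20 counts, 2 were above and 2 below 0, and 3 were at 0 in both libraries. The median log2 ratio of the 4 was -0.42, but it was 0.17 at 100 counts or more. None was called higher and 2 were called lower, where 2.07% and 4.78% of all genes were. *Sox9*, which basal mammary cells also express, had 15300 and 12855 counts (0.25) and held most of the list's 17941 and 15322 counts, whereas *Msx2* had 84 and 170 (-1.003) and *Dlx3* 17 and 39 (-1.11).

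The remaining keratins belong to none of these classes. *Krt42*, a relative of *Krt17* known from the nail, had 4116 counts in CL basal against 3138 in Ctrl basal, a log2 ratio of 0.39 (0.32 to 0.46). *Krt23* had 789 and 728 (0.11, -0.034 to 0.26), *Krt80* had 1099 and 1286 (-0.23, -0.35 to -0.11), and *Krt90* had 40 and 72 (-0.82, -1.45 to -0.27). With counts halved, the interval of *Krt90* was -1.72 to -0.024. Only *Krt90* of these lay beyond 1.5-fold.

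Counted by type, type II keratins were lower in the CL library and type I keratins were nearly level. The type I keratins had 394065 counts in CL basal against 379450 in Ctrl basal (0.051), and the type II keratins had 99543 and 146505 (-0.56). *Krt14* was 59.1% of the type I counts in CL basal against 55.5% in Ctrl basal, and without it the log2 ratio of type I was -0.068. *Krt8* was 53.4% of the type II counts in CL basal against 59.1% in Ctrl basal, and without it the log2 ratio of type II was -0.37. Type I made up 79.8% of keratin counts in CL basal against 72.1% in Ctrl basal. Among the 12 type I genes with at least 20 counts, 9 had a ratio above 0 and 3 below, and among the 16 type II genes, 2 had a ratio above 0 and 14 below. Per base of exon, type II RNA stood at 0.211 of type I RNA in CL basal against 0.317 in Ctrl basal. The ratio of *Krt8* to *Krt18* was 0.15 higher on the log2 scale in CL basal, and that of *Krt5* to *Krt14* differed by -0.37 (0.139 in CL basal, 0.179 in Ctrl basal).

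**Figure D4:**
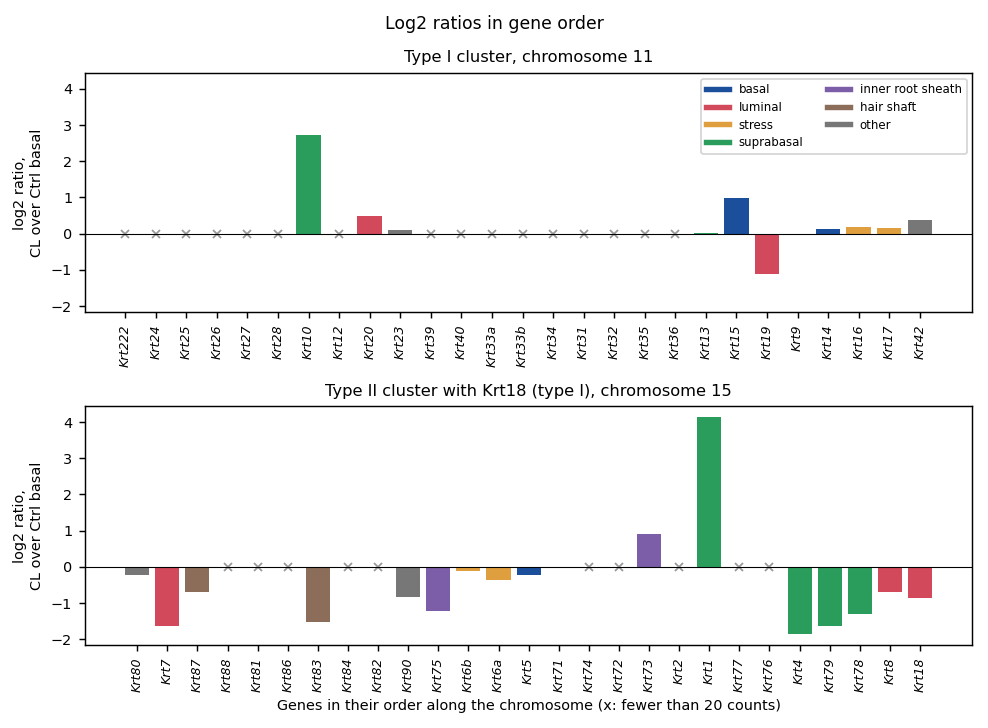
Log2 ratio of CL basal over Ctrl basal for keratins in their order along the type I cluster (chromosome 11, upper panel) and the type II cluster with *Krt18* at its end (chromosome 15, lower panel), coloured by class, 1 library per group. Crosses mark keratins with fewer than 20 counts. *Krt15* (0.99) and *Krt19* (-1.11) are neighbours with opposite signs, and the last 5 genes of the type II cluster are all below 0.

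Position in the clusters was read beside the classes. On chromosome 11 in GRCm38, *Krt15* (100131758 to 100135928) and *Krt19* (100140810 to 100148665) are adjacent, 4881 bases apart on the same strand, and had the highest and the lowest ratio among the type I genes with 10000 counts or more. *Krt14*, *Krt16*, *Krt17* and *Krt42*, which follow each other further along, lay between 0.14 and 0.39. On chromosome 15, *Krt4*, *Krt79*, *Krt78*, *Krt8* and *Krt18*, from 101918536 to 102032026, are the last 5 genes of the cluster and were lower in CL basal, with log2 ratios of -1.86 to -0.71. They span 2 classes. *Krt1* (101845428 to 101850786) stands between *Krt2* and *Krt77*, which had 3 and 5 counts and 4 and 0 counts in CL basal and Ctrl basal. *Krt7* (101411043 to 101430313) lies near the other end, 1176 bases from *Krt87*.

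Genes that anchor keratin filaments had list medians near 0, with members on both sides. Of 13 desmosome genes, 5 had a ratio above and 8 below 0, with a median of -0.068, and none was called. *Dsp*, the plaque protein that binds keratins, had 85923 counts in CL basal against 86733 in Ctrl basal (-0.017), *Dsg3*, the basal desmosomal cadherin, had 413 and 254 (0.69), *Dsc2*, another such cadherin, had 160 and 280 (-0.80), and *Pkp2*, a plakophilin of the plaque, had 280 and 461 (-0.72). Of 6 hemidesmosome genes, 2 were above and 4 below 0 (median -0.10), and *Itgb4*, the integrin chain that links keratins to the basement membrane, had 6291 and 8932 (-0.51). Of 8 other intermediate filament genes, 5 were above and 3 below 0 (median 0.049), and none was called. *Vim*, the mesenchymal filament that basal mammary cells also make, had 28775 and 27887 (0.042), and *Des*, the muscle filament, had 492 and 847 (-0.78).

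Of 15 transcription factors known from keratinocytes, 12 had a ratio above 0 and 3 below (median 0.14), and 1 was called lower, where 4.78% of all genes were. *Zfp750*, which promotes terminal differentiation in epidermis, had 28 counts in CL basal against 155 in Ctrl basal (-2.39, -3.11 to -1.88). *Klf4*, a factor of the epidermal barrier, had 18914 and 15924 (0.25), *Tfap2c* had 5860 and 4330 (0.43), and *Grhl3* had 63 and 37 (0.73, 0.16 to 1.39).

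**Figure D5:**
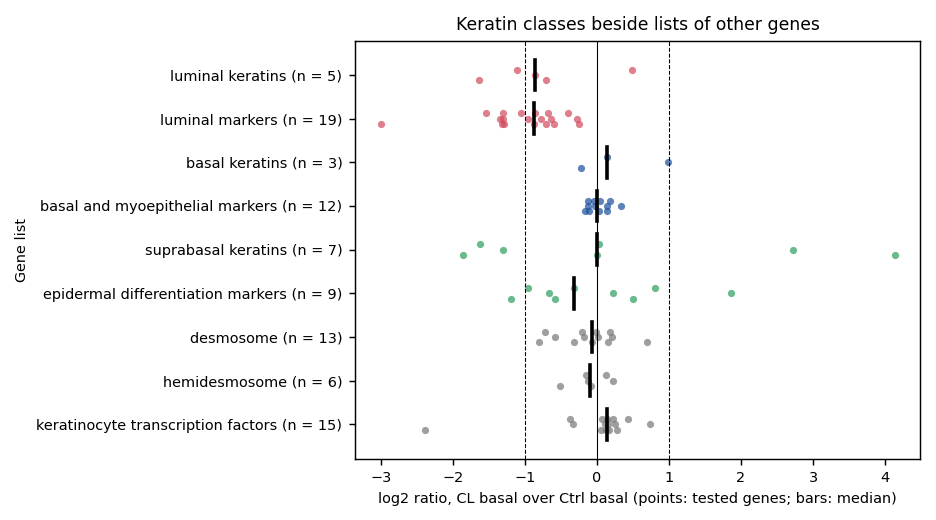
Log2 ratio of CL basal over Ctrl basal for each gene with at least 20 counts in 3 keratin classes and in 6 lists of other genes, 1 library per group. Points are genes, thick bars are medians and dashed lines mark 2-fold. The luminal keratins (median -0.86) other than *Krt20* (0.48) and the luminal markers (-0.88) lie left of 0, the basal and myoepithelial markers lie around 0, and the suprabasal keratins are the most spread.

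Markers of other cell types were read for the same libraries. The lin gate removes CD45+ cells, which include macrophages, B cells and Langerhans cells, and CD31+ endothelial cells, but not fibroblasts or adipocytes. Macrophage markers summed to 510 counts in CL basal against 638 in Ctrl basal, and of 5 with at least 20 counts, 1 was above and 4 were below 0. Of 8 B cell and antigen presenting genes, 3 were called higher and 1 lower, where 2.07% and 4.78% of all genes were, and the sum of 14146 against 3105 counts was carried by *H2-Ab1* (8525 and 1465) and *Cd74* (5079 and 1360). *Cd207*, which marks Langerhans cells of the epidermis, had 2 and 0 counts, and *Epcam*, the other gene on that list, is also a luminal marker. Fibroblast markers summed to 7840 counts in CL basal against 9542 in Ctrl basal, with a median of -0.42 (1 of 6 above 0). The 3 endothelial markers summed to 10553 and 13378 counts (median -0.35), so these transcripts were present in both libraries despite the gate on CD31. Adipocyte markers summed to 3487 and 4683 counts. The 3 endothelial and the 2 adipocyte (median -0.81) markers with at least 20 counts all lay below 0. The part of these cells in the keratin counts was not tested.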

How the data were processed

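Total RNA of the sorted cells was made into libraries with a SMARTER mRNA-Seq kit and sequenced on an Illumina HiSeq. The authors deposited raw read counts per gene, not normalized, with gene coordinates and exonic lengths, and the submitters' processing notes name GRCm38 and mm10. Aligner, annotation release, strand setting and the handling of reads with several matches are not given in the sources used here. Deposited columns with the authors' own ratio and log2 fold change were not used. There were 26 gene names that read as dates, as spreadsheets write them, none of them a keratin. Of the values from 1 to 20, 68.7% were even for CL basal and 67.9% for Ctrl basal, against 49.9% and 49.7% above 1000, so mates appear to be counted separately and the intervals are then too narrow. Halved counts give the wider intervals. A gene inside *Krt5* on the other strand (*Gm44323*) held 8402 and 9907 counts, so reads in overlaps appear to be counted for both genes.

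Counts were scaled with edgeR 4.0.16 in R 4.3.3 by the trimmed mean of M-values (factors 0.987 for CL basal and 1.01 for Ctrl basal), and log2 ratios were computed with a prior count of 2. A difference was called at 2-fold with at least 20 counts over both libraries. Exact (Clopper-Pearson) 95% intervals came from scipy 1.17.1 in Python 3.11.15, and the calculation was tested on simulated data. The median of all genes lay at -0.0059. With 1 library per group no p-value could rest on replicates, and none is given. For the assumed coefficients of variation, a call also had to pass edgeR's exact test at that value, with an adjusted p-value under 0.05. Keratins were named where they had at least 100 counts or were called, and other genes were named from gene lists only. Members, classes and lists were chosen with earlier results of these data known. Shared sequence was counted as 100-base stretches of GENCODE M21 exons found in another gene, and coding identity was computed on the longest reading frame. Upstream windows came from RefSeq on GRCm38.p6. Alternatives were scaling by upper quartile, by totals or by DESeq2 1.42.0 size factors, other count filters, prior counts and thresholds, halved counts, removal of the trend with expression, removal of overlapping genes, and an assumed coefficient of variation of 0.2 or 0.4 between animals.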

Additional observations from a re-analysis of the deposited data

How the results depend on the processing

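No paired analysis was possible because CL basal and Ctrl basal were 1 library each, and leaving out a replicate was not possible for the same reason. Of the 213 values of the 24 named keratins under an alternative, 1 changed sign (*Krt13*, which is not called, from 0.020 to -0.018 with scaling by totals), and 194 stayed inside their 95% interval. *Krt15* ranged from 0.90 to 1.03 and passed 2-fold only with upper quartile scaling. Shares in brackets are of all genes called in that direction at the same setting. The 2 keratins called higher (2.07%) became 3 with upper quartile scaling (2.48%) and 3 with the trend removed (2.85%, *Krt73* added). With no count filter 4 of 48 were called higher (5.38%), and at 1.5-fold 4 were (6.34%). Without overlapping genes 1 of 22 was (2.2%), where *Krt10* drops out by construction. The 7 called lower (4.78%) became 11 of 48 with no filter (12.9%), 4 of 21 at 100 counts or more (1.82%), 6 of 22 without overlapping genes (5.67%) and 11 at 1.5-fold (11.7%). When a coefficient of variation between animals was assumed, a call also had to exceed that spread: at 0.2, 2 were called lower and *Krt1* and *Krt10* higher, and at 0.4 the calls were 0 in both directions. The share of all genes that exceed the assumed spread was not counted. The keratin median of -0.18 became -0.064 with no filter and -0.0029 without overlapping genes. Class sums moved with scaling, to 0.078 (totals) and 0.15 (upper quartile) for basal, -0.86 and -0.78 for luminal, and 0.12 and 0.20 for stress keratins. Settings chosen after seeing the data put *Krt15* on the basal side of the luminal to basal ratio (-0.93), gave each named keratin an interval from halved counts, or left out the leading member of a class, which gave 0.021 for basal, -0.97 for luminal, 0.24 for suprabasal, 0.11 for stress and -0.12 for other keratins. List medians that moved by 0.1 or more were epidermal differentiation (0.37 with no filter, 0.23 at 100 counts, -0.20 with the trend removed, -0.050 without overlapping genes), hair follicle (0.17 with no filter and at 100 counts), B cell and antigen presenting (1.94 at 100 counts, 0.11 with the trend removed, -0.20 without overlapping genes), Langerhans (0.37 with no filter), fibroblast (-0.52 without overlapping genes) and adipocyte (-0.43 with no filter and at 100 counts). The cause of these moves was not tested beyond the genes each setting removes or adds. At 3 counts, or 0.078 CPM, depth limits what can be said of the 26 keratins under 20 counts.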
